A study of Mus musculus with 2 samples.

Results

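A set of 9 genes that mark macrophages of the splenic red pulp and of other tissues were examined in mouse primary CD11b-positive cells, in wild type (wt) and in cells without interferon regulatory factor 8 (IRF8 KO). CD11b, the product of Itgam, is an integrin subunit on the surface of myeloid cells. The genes were taken by name from the deposited annotation: Spic, Hmox1, Vcam1, Cd5l, Cd68, C1qc, Mpeg1, Adgre1 (listed as Emr1) and Adgre4 (listed as Emr4). Each had 1 probe, and these were 9 of 9143 probes listed. Spic, Hmox1, Vcam1, Mpeg1 and Adgre4 were measured on both arrays and are 5 of the 5192 genes tested. Cd5l, Cd68, C1qc and Adgre1 were listed on replicate 1 only, so that their values have no replicate. Each of 2 two-colour arrays set wt RNA labelled with Cy5 against IRF8 KO RNA labelled with Cy3, from untreated cells. The dyes were never exchanged, so that genotype and dye cannot be told apart for a single probe. Strain, age, sex, tissue and the way CD11b-positive cells were selected are not stated in the labels, and the arrays are described as biological replicates without naming animals.

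Red pulp macrophages take up aged red blood cells and recycle the iron of their heme. Their development depends on the ETS-family transcription factor SPI-C, which heme itself induces, and heme oxygenase 1 then opens the heme ring to give biliverdin, carbon monoxide and iron. IRF8 is a transcription factor of monocyte and dendritic cell development that binds DNA with PU.1, the product of Spi1 and a close relative of SPI-C. Many other resident macrophages share the surface receptor encoded by Adgre1, the lysosomal glycoprotein CD68, the complement component C1q and the pore-forming protein MPEG1.

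Irf8 was the name of 0 listed probes, which leaves the genotype labels without a check from the deleted gene; directions follow the labelled dyes. The CD11b gene Itgam was listed in both genotypes on both arrays, with raw signals of 1862 in wt and 7883 in IRF8 KO on replicate 1 and of 3527 and 15036 on replicate 2. It was thus higher in IRF8 KO (log2 ratio 1.88 ± 0.25, SD, n = 2; limma adjusted p = 0.000156). All ratios below are log2 of IRF8 KO over wt and all SDs are over the 2 arrays. Median signals over listed probes lay between 1652 and 2584.5 in the 4 channels. The median ratio over all genes tested was 0.03 on replicate 1 and -0.42 on replicate 2, so that values on replicate 2 are best read against -0.42. Most of that median was set by the deposited normalization. It lowered every ratio of IRF8 KO over wt by 0.392 on replicate 2 and by 0.026 on replicate 1. Ratios, folds and calls given without centring or loess carry this shift. In RNA from a mixed population, fewer cells of a type and less RNA per cell cannot be told apart.

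Every one of the 9 genes gave less signal in IRF8 KO than in wt on each array that listed it. On replicate 1 all 9 were at least 2-fold lower in IRF8 KO, a size reached in that direction by 5.82% of the 6119 probes listed there. Their median log2 ratio on replicate 1 was that of Cd68, -3.0. On replicate 2, 4 of the 5 genes listed were at least 2-fold lower, against 9.85% of 8702 probes, and the fifth, Mpeg1, stood at -0.71. Over both arrays 5 of 5 genes passed limma as lower in IRF8 KO, against 3.41% of all genes tested, and 4 of 5 were at least 2-fold lower on both arrays, against 2.75% (3 of 5 against 1.33% with centred arrays, and 2 of 5 against 1.12% with loess). The median of the 5 mean ratios was -2.25, against -0.21 over all genes. With each array centred on its median, Hmox1, Adgre4 and Vcam1 passed (3 of 5, against 1.54% of all genes), while Spic (adjusted p = 0.0564) and Mpeg1 (adjusted p = 0.163) did not. With loess within arrays 5 of 5 passed, against 5.34%.

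**Figure D1:**
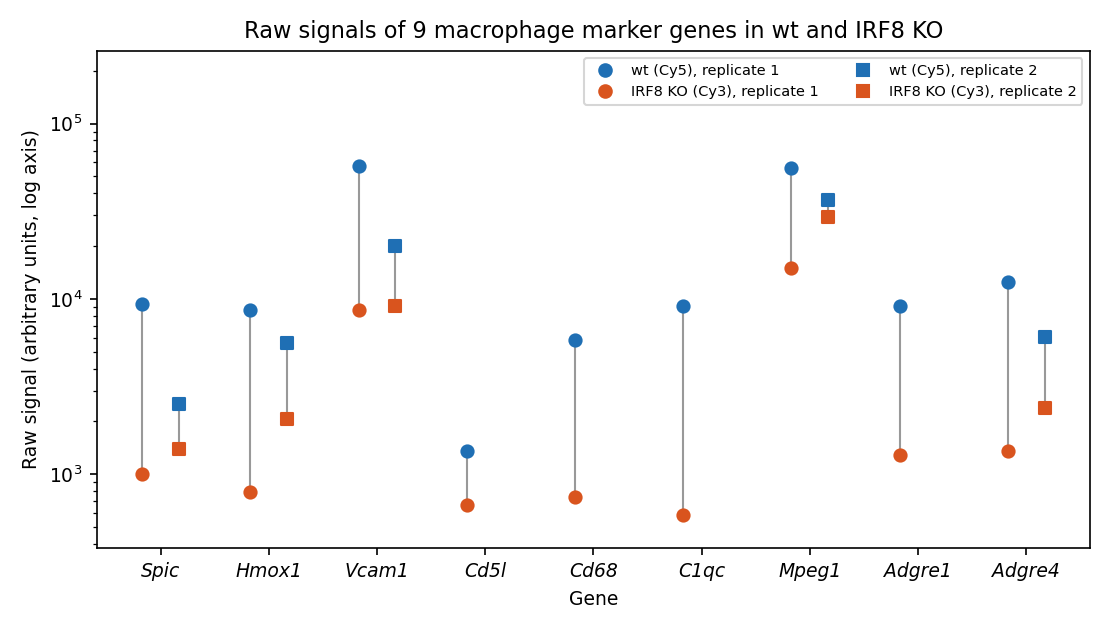
Raw signal (mean intensity minus median background, log axis) of the 9 genes in wt (blue) and IRF8 KO (orange) on replicate 1 (circles) and replicate 2 (squares), with a line joining the channels of 1 array. The wt point lies above the IRF8 KO point in each pair, and the gap is wider on replicate 1 for each of the 5 genes with both arrays.

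The transcription factor and the heme enzyme of red pulp macrophages were both lower without IRF8. Spic (probe on chromosome 10, 88140250 to 88140320, mouse build 37, as for all probe positions here) gave raw signals of 9365 in wt and 1001 in IRF8 KO on replicate 1, and of 2510 and 1385 on replicate 2. The wt signal exceeded that of IRF8 KO on both arrays, while the wt signal itself was lower on replicate 2. Its ratios of -3.25 and -1.25 on replicates 1 and 2 averaged -2.25 ± 1.42, or 4.76-fold lower in IRF8 KO (adjusted p = 3.03e-06). It was the gene of the 5 with the widest spread between arrays, and the call ended with centring (-2.06, adjusted p = 0.0564).

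Hmox1 (chromosome 8, 77624219 to 77624289) encodes the inducible heme oxygenase. Its signals were 8672 in wt and 790 in IRF8 KO on replicate 1, and 5616 and 2053 on replicate 2. Both wt values lay above both IRF8 KO values. The ratios were -3.48 and -1.84, with a mean of -2.66 ± 1.16, or 6.33-fold lower (adjusted p = 1.95e-08; 0.0203 after centring), with rank 3 from the lowest among the 5192 genes. On replicate 1 only 7 probes had a ratio this low or lower, its own included.

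Vcam1 (chromosome 3, 115813103 to 115813173) encodes an adhesion molecule that red pulp macrophages carry and that binds the integrin formed by the products of Itga4 and Itgb1. Its signals were 57485 in wt and 8603 in IRF8 KO on replicate 1, and 19943 and 9156 on replicate 2. The IRF8 KO signals of the arrays were close to each other and the wt signals were not. The mean ratio was -2.14 ± 0.88, from -2.77 and -1.52, or 4.41-fold lower (adjusted p = 9.85e-06; 0.0307 after centring). The wt signal on replicate 1 was the highest of any of the 9 genes, below the 60000 above which probes were left out in an alternative; 0 signals of the 9 genes reached that level.

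Cd5l, the fourth gene tied to tissue macrophages of spleen and liver, encodes a secreted scavenger receptor cysteine-rich protein. On replicate 1 its signals were 1353 in wt and 671 in IRF8 KO, a ratio of -1.04 (chromosome 3, 87174548 to 87174618). This was the weakest ratio and the lowest wt signal of the 9 genes, and 335 probes (5.47%) on that array had a ratio as low or lower. With loess it stood at -0.995, so that it lies at the edge of a 2-fold difference.

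Genes shared by macrophages of many tissues showed low IRF8 KO signals on replicate 1. Cd68, a heavily glycosylated protein of late endosomes and lysosomes, gave 5822 in wt and 741 in IRF8 KO, a ratio of -3.0 (chromosome 11, 69477785 to 69477855); the deposited annotation names no RefSeq transcript for this probe. C1qc, a chain of the complement component C1q that binds immune complexes and dying cells, gave 9053 and 585, a ratio of -3.98 (chromosome 4, 136446130 to 136446200). That was the widest ratio of the 9 genes, and only 3 probes on replicate 1 had one as low, its own included. Loess changed these values little, to -3.09 for Cd68 and -4.07 for C1qc.

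Mpeg1 (chromosome 19, 12539635 to 12539705), which encodes a perforin-like protein of macrophages, differed least of the 5 genes on both arrays. Its signals were 55693 in wt and 15022 in IRF8 KO on replicate 1, and 36569 and 29357 on replicate 2. On the second array the raw signals differed by only 1.25-fold. The mean ratio was -1.31 ± 0.85, from -1.92 and -0.71, or 2.48-fold lower (adjusted p = 0.0215). On replicate 2, 21.6% of probes had a ratio as low or lower, and its centred ratio there was -0.29. The call ended with centring (-1.12, adjusted p = 0.163) and when eBayes was given a trend on intensity (adjusted p = 0.128).

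Both adhesion receptors of the EGF-like module family were far lower in IRF8 KO on replicate 1. Adgre4 (chromosome 17, 55992528 to 55992598) gave 12450 in wt and 1359 in IRF8 KO on replicate 1, and 6080 and 2371 on replicate 2. Both wt signals lay above both IRF8 KO signals. Its mean ratio was -2.49 ± 1.04, from -3.22 and -1.75, or 5.60-fold lower (adjusted p = 1.79e-07; 0.0218 after centring). Adgre1 (chromosome 17, 57622805 to 57622875), whose product is a standard surface marker of mouse macrophages, gave 9103 and 1294 on replicate 1, a ratio of -2.84. The third family member on these arrays, Adgre5, which is found on many leukocytes, stood at -0.57 ± 0.16 (adjusted p = 0.549), from -0.46 and -0.68.

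In order of the mean ratio the 5 genes ran Hmox1, Adgre4, Spic, Vcam1 and Mpeg1. Neighbours among the first 4 differed by 0.18, 0.24 and 0.11, which is less than the standard error of 0.40 that limma gave each gene, and the order of Spic and its neighbours changed between the arrays. Mpeg1 lay 0.85 above Vcam1 on replicate 1 and 0.81 above it on replicate 2; this difference was not tested. Before centring, the ratio on replicate 2 was 37.0% of that on replicate 1 for Mpeg1, 38.4% for Spic, 52.9% for Hmox1, 54.3% for Adgre4 and 54.8% for Vcam1. These shares include the median of -0.42 on replicate 2 and are smaller after centring. The centred ratios on replicates 1 and 2 were -1.95 and -0.29 for Mpeg1, -3.29 and -0.83 for Spic and -3.52 and -1.42 for Hmox1. They were -3.26 and -1.33 for Adgre4 and -2.80 and -1.09 for Vcam1. Replicate 1 also had the wider spread of ratios over all genes, with an SD of 0.75 against 0.60. Of the 281 genes at least 2-fold lower on replicate 1, 80.8% had a higher ratio, less negative or positive, on replicate 2. The median ratio there was 65.2% of the replicate 1 ratio. Of the 643 genes 2-fold lower on replicate 2, 86.2% had a higher ratio on replicate 1, and these counts too are before centring.

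**Figure D2:**
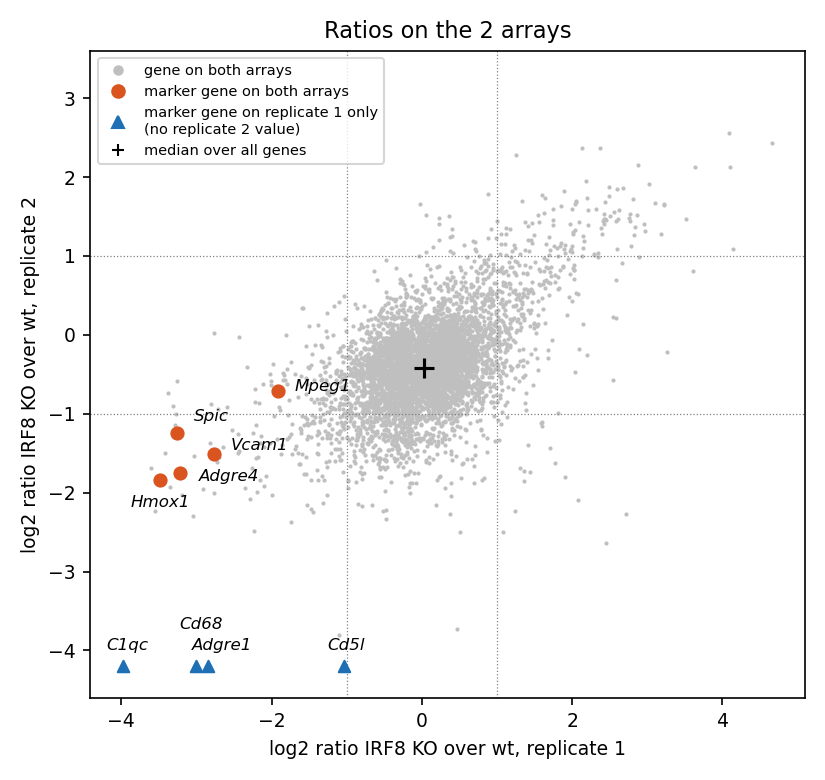
Log2 ratio of IRF8 KO over wt on replicate 1 (x axis) and replicate 2 (y axis) for 5192 genes (grey), the 5 macrophage markers on both arrays (orange) and the median over all genes (cross, 0.03 and -0.42); dotted lines mark 2-fold. Triangles at the lower edge show the replicate 1 ratio of the 4 genes with no value on replicate 2, and their height carries no value. The orange points lie at the left, and Mpeg1 alone among them lies above -1 on replicate 2.

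The 4 genes with a single array came from a small class of probes. Listing asked for a signal of at least 100 and at least the background in both channels, per the file headers, and 441 probes passed on replicate 1 only. Of these, 66 (15.0%) were at least 2-fold lower in IRF8 KO and 6 (1.36%) were 2-fold higher, against 5.11% lower among probes on both arrays. C1qc, Cd68 and Adgre1 had ranks 3, 7 and 10 from the lowest ratio among the 441 probes. The median IRF8 KO signal of these probes on replicate 1 was 689, against 1905 for probes on both arrays. The lowest IRF8 KO signal listed anywhere on replicate 2 was 875, against 451 on replicate 1, and C1qc (585), Cd5l (671) and Cd68 (741) had replicate 1 signals in IRF8 KO below 875, while Adgre1 (1294) did not. Why these probes are missing from replicate 2 was not tested.

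Among the genes nearest to the 5 markers in the plane of both ratios, by Euclidean distance to the median point of -3.22 and -1.52, were Ifi204, Tmem176b, Fcgrt and Dnase1l3. Ifi204, an interferon-inducible protein of the p200 family, lay at a distance of 0.19 with ratios of -3.03 and -1.53. Dnase1l3, a secreted nuclease made by macrophages and dendritic cells, stood at -3.29 and -1.15. This likeness rests on 2 arrays.

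The promoters of the markers were searched for 1 exact form of the PU box, GAGGAAGT. This sequence is bound by PU.1, an ETS factor with which IRF8 pairs on DNA. Sequences of 6 of the 9 genes were found in the RefSeq table of build GRCm38.p6, and the 250 bases before the annotated start were read on both strands. That exact form was in 2.44% of 32851 promoters. C1qc held 1 match, on the strand opposite to the gene and 195 to 188 bases before the start. Spic, Cd68, Cd5l, Mpeg1 and Adgre4 held 0 matches of that exact form in this window. Shorter or variant forms of the PU box were not searched, so these promoters may still hold one. Other elements, searched in a longer and in a shortened form, were set aside after their matches had been seen. The longer form of the IRF-ETS composite sequence (2.30% of all promoters) matched Cd68, and the shortened form (5.89%) matched Cd68, C1qc and Cd5l. The ETS-IRF composite element (2.30% in the longer and 6.99% in the shortened form) matched none of the 6 genes. Neither did the interferon-stimulated response element core (2.98% and 7.13%). A match is a description of the letters and not a measured binding site. The promoter of C1qc is shown for its match, in capitals, and those of Spic, the transcription factor of the set, and Adgre4, a receptor low on both arrays, for comparison. C1qc lies at chr4:136892915-136893164 on the minus strand, Spic at chr10:88683024-88683273 on the minus strand and Adgre4 at chr17:55749734-55749983 on the plus strand. Each is written 5′ to 3′ in the direction of the gene and ends at the base before the start.
C1qc: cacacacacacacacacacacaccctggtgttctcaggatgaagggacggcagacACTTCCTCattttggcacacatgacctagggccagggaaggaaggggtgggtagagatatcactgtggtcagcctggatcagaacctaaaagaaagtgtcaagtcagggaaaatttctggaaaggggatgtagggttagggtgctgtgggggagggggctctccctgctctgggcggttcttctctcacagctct
Spic: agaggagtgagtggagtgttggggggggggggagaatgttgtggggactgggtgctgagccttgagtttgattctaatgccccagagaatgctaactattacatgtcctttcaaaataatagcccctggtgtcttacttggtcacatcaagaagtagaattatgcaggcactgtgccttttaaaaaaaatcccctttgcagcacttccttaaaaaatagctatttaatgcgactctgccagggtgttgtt
Adgre4: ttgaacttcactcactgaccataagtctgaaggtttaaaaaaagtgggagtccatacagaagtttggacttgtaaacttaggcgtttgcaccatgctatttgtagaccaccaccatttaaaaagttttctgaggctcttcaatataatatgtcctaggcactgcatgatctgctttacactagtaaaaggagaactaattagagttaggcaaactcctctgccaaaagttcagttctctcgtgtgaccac

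Enzymes of heme breakdown and synthesis did not move alike. Of 6 genes of heme breakdown and synthesis on both arrays, 3 passed as lower and 1 as higher, against 3.41% and 2.81% of all genes in those directions, and the list's median was -0.70. Both genes named as biliverdin reductases were lower, as Hmox1 was. Blvrb fell by 1.63 ± 0.33, from -1.86 and -1.40 (limma adjusted p = 0.00172, and 0.0361 after centring). Blvra fell by 1.21 ± 0.90, from -1.85 and -0.58 (limma adjusted p = 0.0408, and 0.219 after centring). Both of these calls ended when eBayes was given a trend on intensity (adjusted p = 0.0544 for Blvrb and 0.122 for Blvra), while that of Hmox1 did not (adjusted p = 3.36e-06). Hmox2, the constitutive heme oxygenase, stood at -0.20 ± 0.25 (adjusted p = 0.888). Alas1, which catalyses the first step of heme synthesis, rose by 1.68 ± 0.50, from 2.04 and 1.32 (adjusted p = 0.00112, and 0.00907 after centring), and Urod, a later enzyme of synthesis, stood at -0.16 ± 0.42.

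Genes of iron handling moved in both directions. Of 9 on both arrays, 1 was lower and 1 higher, against 3.41% and 2.81% of all genes, with a median of -0.27, and 0 of 9 were called by limma with the intensity trend. Fth1, the heavy chain of the iron store ferritin, fell by 1.38 ± 0.31 (adjusted p = 0.0135, 0.0407 after centring and 0.149 with the trend), while the light chain Ftl1 stood at -0.70 ± 0.34 (adjusted p = 0.402). Slc40a1, the iron exporter ferroportin, gave -1.80 on replicate 1 and -0.01 on replicate 2 (adjusted p = 0.200), with its wt signal of 64738 on replicate 1 close to the ceiling of the scanner. Ncoa4, which delivers ferritin for breakdown, rose by 1.39 ± 0.44 (adjusted p = 0.0122, and 0.127 with the trend), with a probe matching several genes among its 3 probes. Of 5 genes of the NRF2 oxidative stress response on both arrays, which also governs Hmox1, the peroxiredoxin Prdx1 fell by 1.85 ± 0.84 (adjusted p = 0.000193, and 0.0491 after centring). The NADPH-producing enzyme G6pdx rose by 1.52 ± 0.67 (adjusted p = 0.00442, and 0.0786 with the trend). Sqstm1 (-0.37 ± 0.36), Txnrd1 (0.21 ± 0.39) and Bach1, the heme-sensitive repressor of Hmox1 and Spic (-0.12 ± 0.08), were not called.

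**Figure D3:**
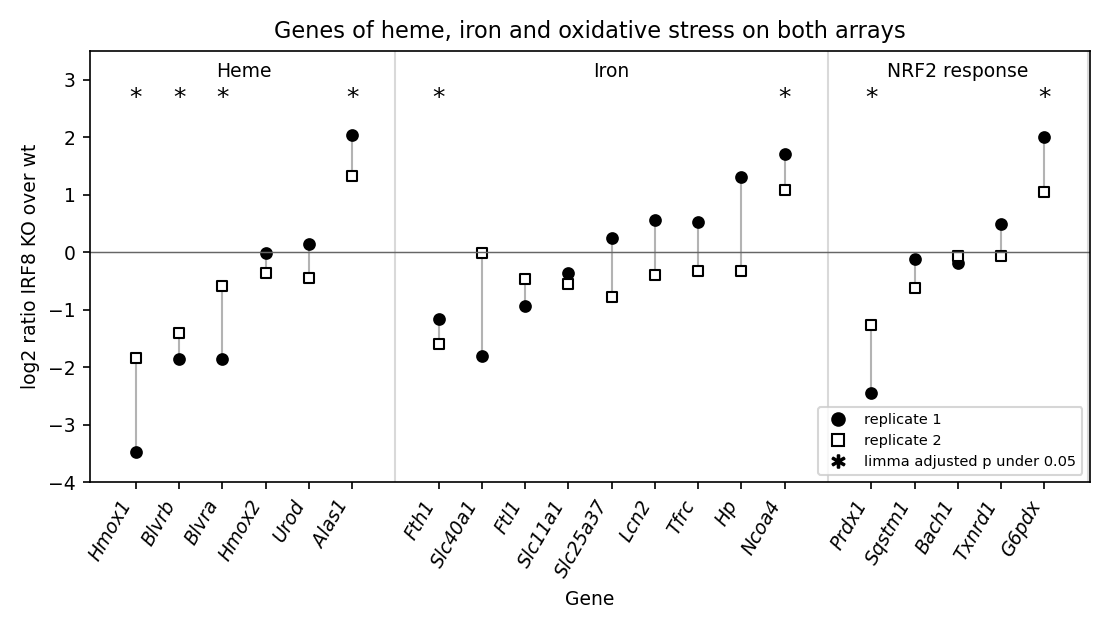
Log2 ratio of IRF8 KO over wt of the genes of heme, iron and the NRF2 response on both arrays, with replicate 1 as filled circles, replicate 2 as open squares and an asterisk for a limma adjusted p under 0.05. Hmox1, Blvrb and Blvra lie below 0 on both arrays and Alas1 lies above 0 on both, while Slc40a1 lies near 0 on replicate 2 only.

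A wider list of the red pulp programme held 7 genes on both arrays, with a median of -1.63 against -0.21 over all genes. Before centring all 7 were negative on both arrays, as were 43.7% of all genes. On replicate 2, where the median over all genes was -0.42, Slc40a1 stood at -0.01 and Pparg at -0.51. The raw signal of Slc40a1 on that array was higher in IRF8 KO (31880) than in wt (24397). Of the 4 that passed, against 3.41% of all genes, Spic, Hmox1 and Vcam1 are among the 9 markers themselves, and the other was Blvrb; Slc40a1, Epor (-0.85 ± 0.01, adjusted p = 0.244) and Pparg (-0.77 ± 0.36) did not. Of the 4 genes of that list on replicate 1 only, Cd5l and Adgre1 are described above. The other two, named after their values were seen, were Hpgd, a prostaglandin-degrading enzyme, at -4.32 (16099 in wt and 823 in IRF8 KO), and Clec4n, a C-type lectin receptor, at -2.88 (7625 and 1056). Neither has a value on the second array.

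Of 13 pan-macrophage genes on both arrays, 6 were lower and 1 higher, against 3.41% and 2.81% of all genes, with a median of -1.07. After centring 3 were lower and 2 higher, against 1.54% and 3.72%. Beside Mpeg1, the lower genes included Csf1r, a growth factor receptor of macrophages (-2.67 ± 0.53, with a wt signal of 62900 on replicate 1 close to the ceiling), Lgmn, a lysosomal protease (-2.10 ± 0.14), Selenop, a secreted selenoprotein (-1.83 ± 1.25; adjusted p = 0.0928 after centring), and Ctsb, a lysosomal protease (-1.37 ± 1.36; adjusted p = 0.248 after centring and 0.141 with the trend). The higher gene was Itgam. Pla2g15, a lysosomal phospholipase, stood at -1.07 ± 0.77 (limma adjusted p = 0.0936), and Lamp2, also not called, is given below with the relatives of Cd68. Of the rest not called, Glul stood at -0.94 ± 0.54, Dusp3 at -0.84 ± 0.28 and Camk1 at -0.27 ± 1.07. Cd14, a receptor for bacterial lipopolysaccharide, stood at -0.42 ± 0.04 (limma adjusted p = 0.710). Mertk, a receptor for dying cells and named after its value was seen, was on replicate 1 only at -2.38 (3201 in wt and 625 in IRF8 KO).

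Relatives of the markers in their protein families gave smaller ratios in most cases. Among ETS factors, Spic was the only 1 of 8 on both arrays that passed, against 3.41% of all genes called lower. After centring 0 of the 8 passed (limma adjusted p = 0.0564 for Spic). Spi1 stood at -0.84 ± 0.34 (adjusted p = 0.253), from -1.09 and -0.60, and Spib, an ETS factor of B cells and plasmacytoid dendritic cells, at -0.65 ± 0.94 from 0.01 and -1.32. Lamp1, a lysosomal membrane protein related to CD68, stood at -0.33 ± 0.09 (adjusted p = 0.800), and Lamp2 at 0.95 ± 0.27 (adjusted p = 0.167), which passed as higher after centring (adjusted p = 0.0464). The complement component gene C8b, related to Mpeg1 through the pore-forming domain, stood at -0.82 ± 0.46 (adjusted p = 0.277), with a signal of 64654 near the top of the range, and C6 was on replicate 1 only at -1.56. Marco and Lgals3bp, which share the scavenger receptor cysteine-rich domain with Cd5l, passed at -1.37 ± 1.97 and -1.42 ± 0.67. Marco rested on replicate 1 (-2.76 against 0.03), and after centring the call of each ended (adjusted p = 0.376 and 0.0987). C1qa, C1qb, Cd163, Msr1, Prf1 and Itga4 had no probe listed under their names on either array and could not be compared.

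Complement and adhesion genes around C1qc and Vcam1 moved in both directions. Of 6 complement genes on both arrays, Itgam, which is also a chain of a complement receptor, was the 1 called, as higher (2.81% of all genes), and C3 (1.14 ± 1.42, adjusted p = 0.0630, from 2.15 and 0.13, with IRF8 KO signals of 64640 and 60387 close to the ceiling) and Cd55, a complement inhibitor and ligand of Adgre5 (-1.08 ± 1.30, adjusted p = 0.0859, from -0.16 and -2.0), were not. Of 12 adhesion genes on both arrays, 3 were lower and 1, again Itgam, higher, against 3.41% and 2.81% of all genes. Beside Vcam1, the integrin chain Itgb7 fell by 1.84 ± 0.44 (adjusted p = 0.000221, and 0.0128 after centring) and Icam1, a ligand of leukocyte integrins, by 1.27 ± 0.26 (adjusted p = 0.0280, 0.0856 after centring and 0.133 with the trend). Itgb1 stood at -0.58 ± 0.43 (adjusted p = 0.539). Itgb2, the partner chain of Itgam, stood at 1.07 ± 0.07 (adjusted p = 0.0941, and 0.0361 after centring) and Pecam1 at -1.0 ± 1.09 (adjusted p = 0.133).

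Markers of other cell types moved on the same arrays, and their part in the ratios of the 9 genes was not tested. Of 9 neutrophil genes on both arrays, 3 were called higher and 0 lower, against 2.81% and 3.41% of all genes. They were Camp (3.55), Mpo (2.49) and Ngp (2.21 ± 1.98, from 3.6 and 0.81), with signals of up to 60154 for Camp and 62663 for Mpo near the ceiling. The rest were not called: Retnlg (0.97), Lyz2 (0.88), Cxcr2 (0.12), Lcn2 (0.08), Ltf (0.01) and S100a8 (-0.03). The list's median was 1.10 on replicate 1 and -0.26 on replicate 2. B cell genes had 9 of 12 members on both arrays and 0 called by limma, with medians of -0.12 on replicate 1 and -1.48 on replicate 2. The macrophage markers were thus farther from 0 on the array where the B cell list lay near 0, and closer to 0 on the array where it lay lower. Of 5 dendritic cell genes, 4 were called lower, against 3.41% of all genes: Flt3 (-1.51), Bst2 (-1.50), Ly6d (-1.48) and Cd83 (-1.30). The fifth, Batf3, was not called (-0.12 ± 0.60, from -0.54 and 0.31). Cd209a, on replicate 2 only, went the other way at 1.21 (1650 in wt and 5015 in IRF8 KO). The medians of the dendritic cell genes on both arrays were -1.15 on replicate 1 and -1.02 on replicate 2. None of the 4 called genes passed limma after centring, nor did Ly6d with the intensity trend (adjusted p = 0.103). Of 7 monocyte genes, 1 was called lower and 1 higher, against 3.41% and 2.81% of all genes. Ms4a6c fell (-2.89) and Ly6c1 rose (2.00, with a probe matching several genes), and the list medians were -0.15 and -0.95.

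The remaining lists held few genes on both arrays. Erythroid genes, relevant because red pulp macrophages engulf red cells, had 3 of 17 on both arrays and 0 called by limma. The globin gene Hbb-b1, with a probe matching several genes, stood at -1.10 ± 0.33 (adjusted p = 0.0811). Eosinophil genes had 3 of 11 and 0 called, with list medians of 0.23 and 1.06. These medians are the values of Ear2 and Ear1, whose probes match several genes. Of 2 T cell genes, 1 was called lower, against 3.41% of all genes: Cd2 fell (-1.23, adjusted p = 0.0357, 0.111 after centring and 0.113 with the trend). NK cell and megakaryocyte lists had 0 genes on both arrays, and the endothelial and stromal list had 1, Pecam1. The called genes of these lists and of the lists in the preceding paragraph were named after their values were seen.

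**Figure D4:**
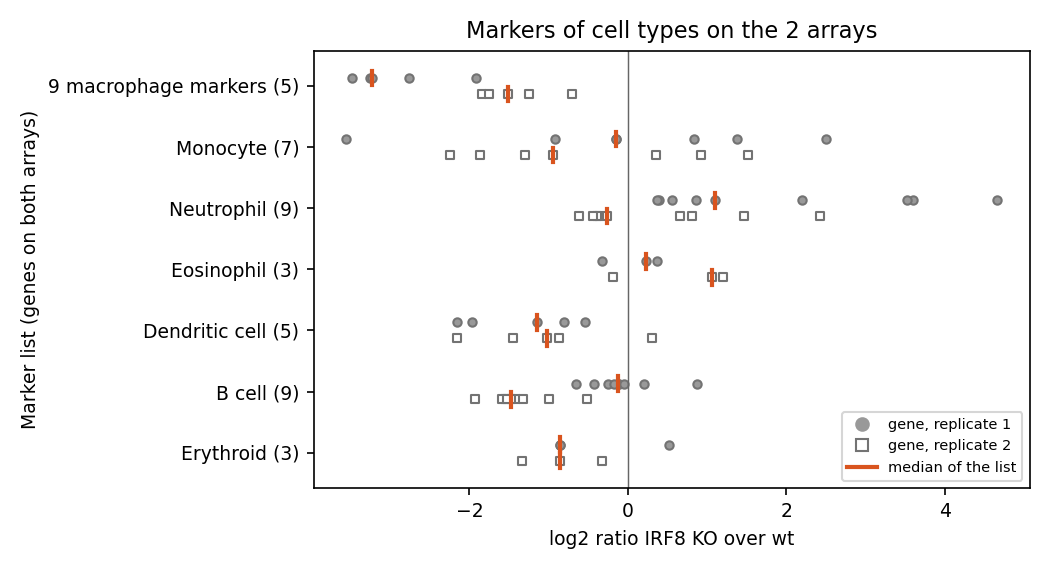
Log2 ratio of IRF8 KO over wt of each gene on both arrays, for the macrophage markers and for cell type lists with at least 3 such genes (number in brackets), with replicate 1 as filled circles, replicate 2 as open squares and the list median as an orange bar. The macrophage markers lie lowest on replicate 1 (median -3.22), where B cell genes centre on -0.12, and their median on replicate 2 (-1.52) is close to that of B cell genes there (-1.48).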

How the data were processed

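The deposited log2 values are Cy5 over Cy3 ratios that the authors normalized with mAdb's median option, per the file headers; subtracting the raw log2 ratio leaves 0.026 on replicate 1 and 0.392 on replicate 2 for each probe. The deposited intensities are raw signals, mean intensity minus median background; control features were dropped, a spot was listed where both channels reached 100 and the background, and the strongest spot of a well was kept, per the file headers. The value table gives the replicates the opposite way round; array names were followed, which changes no mean or test.

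The labelled dyes gave IRF8 KO over wt. Probes of a gene, named through Entrez IDs in a RefSeq table (8370 of 8459 matched), were averaged. The test was limma 3.58.1 (R 4.3.3; an intercept over 2 arrays, two-sided, Benjamini-Hochberg over 5192 genes, threshold 0.05). The prior degrees of freedom were infinite, so every gene had an SD of 0.56 and a call amounted to a mean ratio of at least 1.18 in size. An exact sign-flip test over 2 arrays cannot give a two-sided p under 0.5. The fit was tested on simulated data in which all genes shared the same SD and the arrays had no offset. That test therefore does not bear on genes of wider spread or on the shift of replicate 2. In this main fit p-values rest on that SD of 0.56, pooled over genes, and not on a gene's own spread between the arrays. The own SDs of the 5 markers on both arrays were wider, from 0.85 for Mpeg1 to 1.42 for Spic. With no animals named, the pooled SD holds only spread between these arrays, whose number limits precision. No genome of the probes' build was used. The 9 genes and all lists were chosen with earlier results of these data known. In each list that is not of a cell type, the genes that passed and the 2 largest that did not were to be named, with relatives of the 9 genes and the 5 genes of nearest ratios. Alternatives were centring, loess, other variance models, filters on dim, bright and ambiguous probes, 1 probe a gene, single arrays and the value table. In the promoters, an ETS-IRF composite element, an IRF-ETS composite sequence and an interferon-stimulated response element core were searched in a form of 10 letters and in one shortened to 9; both were dropped after their matches were seen. A gene that the naming rule took is not reported here.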

Additional observations from a re-analysis of the deposited data

How the results depend on the processing

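Over all genes, 146 were called higher and 177 lower, so 45.2% of calls were higher. With centred arrays 193 were higher and 80 lower (70.7% higher), and with loess 381 and 277 (57.9%); prior degrees of freedom were 7.3 and 24.2 there, so a gene's own spread counted. Members called lower were 5, against 3 with centring and 0 with an ordinary t statistic, which called 0 genes in either direction over all genes and over the lists (302 genes at an unadjusted p under 0.05, against 839 by limma). That statistic gave adjusted p = 0.775 for Spic (-2.25), 0.766 for Hmox1 (-2.66), Vcam1 (-2.14) and Adgre4 (-2.49) and 0.779 for Mpeg1 (-1.31). Centring moved Spic to -2.06 and Mpeg1 to -1.12, neither called, and an intensity trend ended the call of Mpeg1 (-1.31). Genes 2-fold on both arrays were 143 lower and 112 higher, 69 and 186 with centring, and 58 and 195 with loess, where 2 of the 5 macrophage markers remained at least 2-fold lower on both arrays. Single arrays gave 281 to 643 genes lower and 135 to 396 higher, with 4 to 5 of the markers lower. Beside the markers, the lists had 13 genes called lower and 4 higher: 7 lower with centring, 7 higher with loess, and 8 lower and 2 higher with an intensity trend. The causes were not tested. The ratios of the 5 genes on both arrays stayed negative under the alternatives run, among them the filters on dim and bright probes, on probes matching several genes, the brightest probe and the value table; those of the 4 genes on replicate 1 only were recomputed with centring and loess and stayed negative. On a single array the ratios ran from -3.25 to -1.25 for Spic, -3.48 to -1.84 for Hmox1, -2.77 to -1.52 for Vcam1, -1.92 to -0.71 for Mpeg1 and -3.22 to -1.75 for Adgre4, with no test, since 1 array leaves no residual degree of freedom. No paired analysis was possible because both arrays form 1 group, in which each ratio already pairs the genotypes.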

Other observations

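Some genes of the lists were on replicate 2 only, so that their ratios have no replicate and were chosen after their values were seen. Adgrg3, an adhesion receptor of neutrophils, stood at 2.04 (605 in wt and 3270 in IRF8 KO). The neutrophil genes Ctsg, S100a9 and Mmp8 stood at 2.38, 2.16 and 2.13, and the lysosomal protease Ctsd at 0.57. The receptors Tlr4 and Tlr8 stood at -0.05 and 0.14, and Nfe2l2, the transcription factor NRF2, at 0.60. On replicate 1 only, the eosinophil granule genes Prg2 and Prg3 stood at 1.58 and -1.80.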
